A study of Mus musculus with 10 samples.

Results

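10 genes that code for secreted or membrane proteins, or in the case of *Capg* for an actin-capping protein, and that are commonly read as parts of the disease-associated microglia (DAM) programme were followed across the immune cells of the mouse brain: *Spp1*, *Igf1*, *Itgax*, *Clec7a*, *Axl*, *Cd9*, *Cd63*, *Ank*, *Lgals3* and *Capg*. They were chosen by name, with earlier results of these data known. Of the 10, 9 had counts among the 31053 genes of the matrix, and *Clec7a* was not analysed here. Droplet sequencing of the 3' ends of RNA (10x Genomics) had been done on CD45+ cells, that is on cells carrying the pan-leukocyte surface protein CD45, taken from whole brain. WT and Nlrp3KO mice (lacking the inflammasome sensor Nlrp3 in the whole body) were profiled at 3, 6 and 9 months. *APP/PS1* mice, which carry human transgenes that lead to amyloid plaques, and Nlrp3KO *APP/PS1* mice were profiled at 3 and 9 months. Each genotype and age was 1 library made from a pool of 3 mice, so 10 libraries and no replicate library of any group were present.

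According to the study's methods the mice of an age were littermates, each pool held both sexes, and actinomycin D was present during dissociation to limit transcription. Pooling means that the spread between mice cannot be seen. The libraries of 1 age also share a batch number in the annotation. Age therefore cannot be told apart from batch, whereas each comparison of genotypes below was made within an age. Each *APP/PS1* library was paired with its age-matched counterpart of equal Nlrp3 genotype (4 pairs), and each Nlrp3KO library with its age-matched counterpart of equal *APP/PS1* status (5 pairs). WT and Nlrp3KO mice without the transgenes are called non-diseased.

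Microglia are the resident macrophages of the brain parenchyma. Near amyloid plaques they are known to leave the homeostatic state (HM) and to take on the DAM state, in which genes of lipid handling, lysosomes, adhesion and secretion are raised and homeostatic genes are lowered, in part through the receptor Trem2. The annotation of the authors also names microglia transitioning toward DAM (TM), interferon-response microglia (IRM), microglia rich in immediate-early genes (IEG) and proliferating microglia (PM). The study describes the signature of IEG as a known response to dissociation of the tissue. The part of dissociation in the levels of IEG given below was not tested. Many of the proteins studied here are also used by macrophages, monocytes and lymphocytes elsewhere.

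The secreted members are *Spp1*, which codes for osteopontin, a phosphoprotein that binds integrins and CD44, *Igf1*, the insulin-like growth factor, and *Lgals3*, which codes for galectin-3, a sugar-binding protein that leaves the cell by an unconventional route. The surface receptors are *Itgax* (CD11c, the alpha chain of a beta2 integrin), *Axl* (a receptor tyrosine kinase of the TAM family that binds Gas6) and *Clec7a* (Dectin-1, a receptor for beta-glucan). *Cd9* and *Cd63* code for tetraspanins, Cd63 being a usual marker of late endosomes and lysosomes. *Ank* codes for a membrane protein that takes part in the export of pyrophosphate, and *Capg* for a gelsolin-like protein that caps actin filaments.

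In the mouse genome build GRCm38 (mm10, GENCODE M21) the genes lie on 6 chromosomes. *Spp1* is at chr5:104435118-104441050 (+), *Capg* at chr6:72544391-72562983 (+), *Cd9* at chr6:125460266-125494791 (-) and *Clec7a* at chr6:129461591-129472779 (-). *Axl* is at chr7:25757273-25788705 (-) and *Itgax* at chr7:128129547-128150657 (+). *Igf1* is at chr10:87858265-87937042 (+), *Cd63* at chr10:128900989-128912822 (+), *Lgals3* at chr14:47367751-47386160 (+) and *Ank* at chr15:27466677-27594909 (+). The members are therefore spread over the genome, with 3 on chromosome 6, 2 on chromosome 7 and 2 on chromosome 10.

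The promoter windows of *Spp1*, *Itgax* and *Igf1* are printed because they are the member windows in which the letters of PU.1 or AP-1, motifs of factors active in microglia, were found. Each window runs from 250 bases before to 50 bases after a RefSeq transcription start on GRCm38.p6, 5′ to 3′ along the gene. Capitals mark the matches to the searched motifs: TATAAA, a core promoter box, and GAGGAAGT, a PU.1 motif, in *Spp1*, and TGANTCA, an AP-1 motif, in *Itgax* and *Igf1*.
Spp1, chr5:104434861-104435160 (+): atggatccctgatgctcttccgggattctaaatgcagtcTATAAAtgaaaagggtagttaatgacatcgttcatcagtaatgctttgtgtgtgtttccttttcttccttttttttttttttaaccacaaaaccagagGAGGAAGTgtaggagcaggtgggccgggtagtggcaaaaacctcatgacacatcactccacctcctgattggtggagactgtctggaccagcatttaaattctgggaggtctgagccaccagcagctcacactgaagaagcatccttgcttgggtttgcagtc
Itgax, chr7:128129300-128129599 (+): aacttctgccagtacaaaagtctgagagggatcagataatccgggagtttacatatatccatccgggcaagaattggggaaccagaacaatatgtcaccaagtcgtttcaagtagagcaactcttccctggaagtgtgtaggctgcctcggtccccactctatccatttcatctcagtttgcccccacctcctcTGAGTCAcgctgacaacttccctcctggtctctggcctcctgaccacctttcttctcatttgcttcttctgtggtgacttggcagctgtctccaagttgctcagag
Igf1, chr10:87860861-87861160 (+): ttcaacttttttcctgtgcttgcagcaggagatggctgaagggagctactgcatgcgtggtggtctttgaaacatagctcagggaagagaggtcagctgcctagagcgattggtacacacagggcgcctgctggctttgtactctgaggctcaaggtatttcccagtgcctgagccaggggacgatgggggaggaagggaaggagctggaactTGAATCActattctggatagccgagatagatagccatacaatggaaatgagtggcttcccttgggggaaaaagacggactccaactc

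Of 32851 RefSeq promoter windows of this length, 7.81% held the AP-1 letters, 3.20% the PU.1 letters and 13.6% the TATA letters on either strand. In the 12 windows of the members, the AP-1 letters were found in those of *Itgax* and *Igf1*, the PU.1 letters in 1 of *Spp1*, and the TATA letters in 1 of *Spp1* and 1 of *Clec7a*. The letters CATGTG (an M-box), held by 14.2% of all windows, were found in that of *Cd9*, and the E-box CACGTG, held by 7.15%, in none. A PU.1 match of *Spp1* starts 113 bases and a TATA match 211 bases before the start, and the AP-1 matches start 56 bases before it in *Itgax* and 37 in *Igf1*. The *Ank* and *Lgals3* windows were rich in G and C (78.0% and 67.0%), against 45.3% in the *Spp1* window and a median of 52.7% over all windows. These matches describe letters only.

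The matrix held 45472 cells of the 10 libraries, of which 40547 were annotated as microglia and 4925 were other or unannotated cells. Microglia had 9357431 to 35107144 UMIs (unique molecular identifiers, 1 per captured RNA molecule) per library and a median of 3978 to 5985 UMIs per cell. Of 45225 distinct cell barcodes, 246 occurred in more than 1 library. *Nlrp3* had 0 UMIs in the microglia of all 5 Nlrp3KO libraries and 34.4 to 53.7 CPM in the 5 others, as the labels say. Levels below are CPM, the UMIs of a gene scaled to a fixed total of UMIs and summed over the cells of a type. They count the 3' end of an RNA and are not divided by length, so they are compared between cells and not between genes. In such sums, fewer cells with the RNA and less RNA per cell cannot be told apart.

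DAM were 901 microglia, against 31953 HM, 2538 TM, 2271 IRM, 2094 IEG and 790 PM, and 455 of the 901 came from the 2 *APP/PS1* libraries of 9 months. The label was checked with *Cst7*, *Lpl*, *Apoe*, *Trem2* and *Ctsd*. DAM of the 4 *APP/PS1* libraries held 848 to 2785 CPM of *Cst7* and 348 to 784 CPM of *Lpl*. DAM of the 6 non-diseased libraries held 74.0 to 205 CPM of *Cst7* and 6.83 to 96.7 CPM of *Lpl*, so the cells with this label carried less of these markers there. The summed level of the DAM marker list was 27797 to 42205 CPM in the former and 16144 to 18837 in the latter. Border macrophage markers (*Mrc1*, *Pf4*, *Cd163*, *Lyve1*, *F13a1*) summed to 8.79 to 36.2 CPM in DAM of *APP/PS1* and 0 to 55.9 in DAM of non-diseased mice. A doublet score over 0.5 was given to 14.4% of DAM and to 7.63% of all microglia. Non-diseased DAM came as 31 to 102 cells per library and *APP/PS1* DAM as 24 to 253.

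Across the 6 microglial states, DAM held the highest pooled level of *Spp1*, *Igf1*, *Itgax*, *Axl*, *Ank* and *Capg*, whereas *Cd9*, *Cd63* and *Lgals3* were highest in IEG. *Spp1* measured 211 CPM in DAM, 34.4 in IEG, 5.25 in TM and 0.552 in HM over the 10 libraries. *Igf1* measured 62.8, 3.42, 3.75 and 0.552 CPM in the same order. *Ank* measured 250.2 CPM in DAM, 109.6 in IEG, 21.4 in TM and 22.4 in HM, so TM did not stand above HM for this gene. *Axl* measured 98.8, 37.6, 44.4 and 2.82 CPM. *Itgax* was at 50.8 CPM in DAM and close to it in IEG at 41.2, with 9.82 in TM and 2.52 in HM. *Capg* was at 160.3, 84.6, 69.2 and 27.0 CPM. The tetraspanins were high in every state. *Cd9* measured 1757 CPM in HM and 2809 in DAM, and *Cd63* 536 and 1377, while IEG held 3895 and 1672. *Lgals3* measured 21.2 CPM in DAM but 98.9 in IEG. States are clusters of these same cells, so the levels by state are a description and carry no test.

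**Figure D1:**
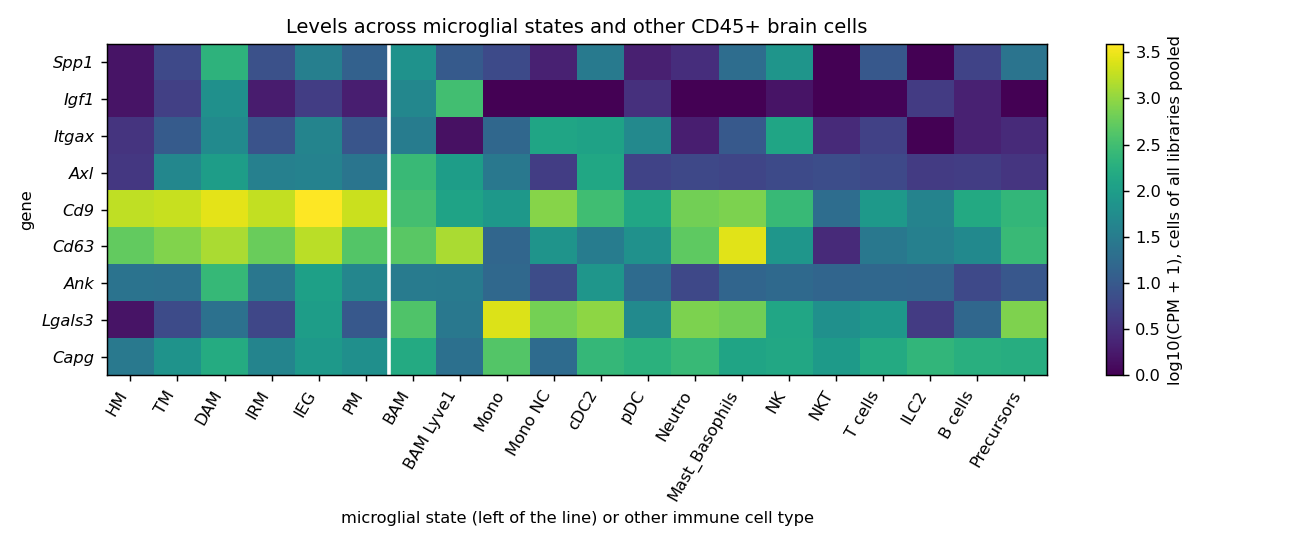
Heat map of log10(CPM + 1), summed over the 10 libraries, for the 9 members (one per line) in the 6 microglial states and 14 other annotated CD45+ cell types (one per column). The colour bar gives the scale, and *Lgals3*, *Axl* and *Igf1* reach their highest colours outside microglia.

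Outside microglia, each member had its own pattern, as the heat map of cell types shows. *Igf1* was highest in the *Lyve1*-expressing border-associated macrophages (BAM Lyve1) with 308 ± 61.5 CPM (mean ± SD, n = 9 libraries), and that gap exceeded the spread to the next type, the other BAM (47.6 ± 26.4, n = 10). DAM came after both with 37.65 ± 38.0 CPM (n = 10), within the spread of BAM. *Axl* was likewise highest in BAM at 275.5 ± 36.8 CPM (n = 10), beyond the spread of BAM Lyve1 (105 ± 38.7, n = 9), and DAM were not separate from BAM Lyve1 at 78.2 ± 62.3 CPM. The DAM means span both backgrounds. DAM of *APP/PS1* libraries alone averaged 72.6 ± 31.2 CPM of *Igf1* (n = 4), above the mean of BAM and below that of BAM Lyve1, and DAM of non-diseased libraries 14.4 ± 19.6 (n = 6). For *Axl* these means were 145 ± 36.0 and 33.9 ± 17.5 CPM, both below BAM.

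*Itgax*, often used as a dendritic cell marker, was highest in NK cells (128 ± 25.9 CPM, n = 7) and conventional type 2 dendritic cells (cDC2, 111 ± 20.1, n = 3), which overlapped. Both stood beyond the spread of IEG (43.0 ± 17.0, n = 10) and of DAM (39.1 ± 29.5, n = 10). *Lgals3* was led by cDC2 at 1049 ± 165 CPM (n = 3) and BAM at 388 ± 141 CPM (n = 10). DAM were the eighth type for *Lgals3* with 14.4 ± 13.3 CPM, below T cells (101 ± 51.6, n = 10). Monocytes, which reached 20 cells in too few libraries for this order, held 2523 CPM of *Lgals3* and 429 of *Capg* when pooled. *Capg* in DAM (135.5 ± 56.2 CPM) came after cDC2 (237 ± 62.7), T cells (186 ± 85.2), B cells, BAM and NK cells, and no neighbours from cDC2 down to DAM differed beyond their spread.

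*Spp1* and *Ank* were the members with DAM first in this order, and neither led beyond the spread over libraries. *Spp1* averaged 188.5 ± 223 CPM in DAM (n = 10) against 78.7 ± 79.8 in NK cells (n = 7), 71.5 ± 76.2 in BAM (n = 10) and 38.7 ± 35.1 in IEG (n = 10). *Ank* averaged 185 ± 176.5 CPM in DAM, 102 ± 46.2 in IEG and 79.0 ± 16.0 in cDC2 (n = 3). The SD of DAM was about as large as its mean for both genes. For *Ank* the *APP/PS1* libraries averaged 376 ± 112 CPM (n = 4) and the non-diseased ones 58.3 ± 14.5 (n = 6). For *Spp1* they averaged 208 ± 120 and 175 ± 284 CPM, with 1 non-diseased library at 750. *Cd9* was led by IEG at 3939 ± 523 CPM, beyond the spread of DAM at 2528 ± 894, and every microglial state was above every other type of this order. *Cd63* was at 1687 ± 409 CPM in IEG, 1340 ± 71.7 in BAM Lyve1 and 1201 ± 396.5 in DAM. Neighbours among these did not differ beyond their spread, whereas IEG and DAM did. Pooled mast cells and basophils (28 cells) held 2712 CPM.

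The pattern over the 20 types and states was set beside that of 6206 other genes by Pearson's r of log2(CPM + 1), which is a description since all points share libraries and depth. *Spp1* was most like *Ccl3* (r = 0.675), followed by *Sdf2l1* (0.658). *Igf1* was most like *Cp* (0.907) and *Folr2* (0.886), and *Cd9* most like *Rtn3* (0.915). *Axl* and *Ank* shared *Pea15a* among their 3 most alike genes (0.801 and 0.772). The nearest genes of the others were *Tubb6* for *Itgax* (0.809), *Npl* for *Cd63* (0.893), *Arpc1b* for *Lgals3* (0.885) and *Gtf2h5* for *Capg* (0.735).

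From HM over TM to DAM the members did not move in step. *Axl* was already high in TM: its log2 ratio was 3.98 from HM to TM and 1.16 from TM to DAM, so 77.5% of the log2 difference between HM and DAM lay before TM. *Lgals3* (64.4%) and *Capg* (52.9%) also had the larger step before TM. *Itgax* (45.3%), *Cd63* (44.4%), *Igf1* (40.4%) and *Spp1* (37.9%) had the larger step between TM and DAM. *Cd9*, with a small total log2 difference of 0.68, had 18.8% before TM. *Ank* was last, with a log2 ratio of -0.06 from HM to TM and 3.55 from TM to DAM. The order from early to late was thus *Axl*, *Lgals3*, *Capg*, *Itgax*, *Cd63*, *Igf1*, *Spp1*, *Cd9* and *Ank*.

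**Figure D2:**
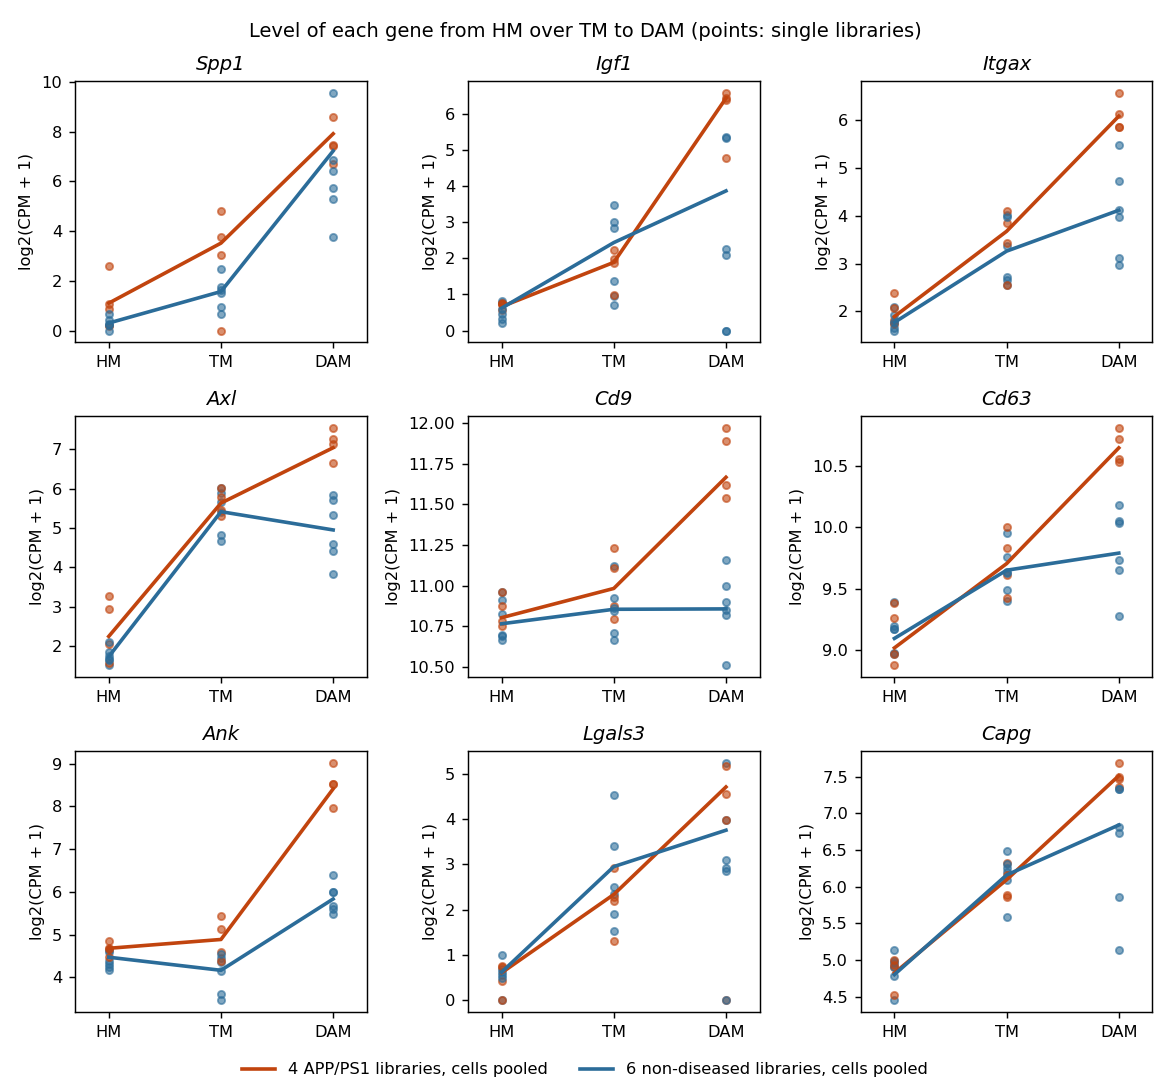
log2(CPM + 1) of the 9 members in HM, TM and DAM, one panel per gene. Points are single libraries, and lines join the pooled values of the 4 *APP/PS1* (orange) and the 6 non-diseased (blue) libraries. The *Axl* line climbs mainly from HM to TM, and the *Ank* line is flat there and climbs from TM to DAM.

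This order depended on the mice, as the 3-state plot shows. In the 4 *APP/PS1* libraries, 8 of the 9 members were higher in DAM than in TM in 4 of 4 libraries, and *Lgals3* in 3 of 4. In the 6 non-diseased libraries only *Spp1* and *Ank* were higher in DAM than in TM in 6 of 6. *Axl* was higher in 2 of 6, and its pooled level there was lower in DAM (29.9 CPM) than in TM (41.7 CPM). The other 6 members were higher in 4 of 6. *Igf1* had 30.8% of its log2 difference before TM in *APP/PS1* libraries and 65.2% in non-diseased ones, and *Itgax* had 45.8% and 66.4%. *Cd9* in non-diseased mice measured 1741 CPM in HM, 1852 in TM and 1855 in DAM. TM held more *Ank* than HM in 2 of 4 *APP/PS1* and 1 of 6 non-diseased libraries, and by the share before TM this gene kept the last place in both. By the difference between the steps, *Spp1* came after *Ank* in non-diseased libraries. Its log2 ratios there were 3.08 before and 6.24 after TM, and those of *Ank* -0.32 and 1.73. Whether the steps differ between the sets of libraries was not tested.

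The annotation of all CD45+ cells, made separately from that of the microglia, gave 1416 DAM and 3600 TM, of which 788 and 1776 carried the same label in both. With those labels, *Spp1* measured 143 CPM in DAM, *Igf1* 41.4, *Itgax* 51.0, *Axl* 90.4, *Ank* 198 and *Lgals3* 17.9, and DAM still exceeded TM and HM for every member. *Axl* was then the 1 member whose step from HM to TM exceeded that from TM to DAM (a difference in log2 ratios of 1.65). The difference for *Lgals3* fell to -0.02 and that for *Capg* to -0.07, so their places in the order were not firm. For *Ank* it was -3.92, the lowest of the 9 as before.

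*Spp1* in DAM came from few cells. Of 901 DAM, 97 had a *Spp1* UMI, and 10 cells held 69.1% of the 1223 UMIs. In the Nlrp3KO library of 3 months, 1 of 37 DAM held 149 of 153 UMIs, and the level fell from 750 to 20.7 CPM without that cell. In the Nlrp3KO library of 9 months, 1 of 102 DAM held all 60 UMIs. The same shape was seen in the Nlrp3KO library of 6 months (29 of 30 UMIs in 1 cell), the WT library of 6 months (15 of 16) and the *APP/PS1* library of 3 months (36 of 40). The WT libraries of 3 and 9 months had 2 and 11 UMIs, with 1 and 7 in the top cell. By contrast, 17 DAM held the 63 UMIs of the Nlrp3KO *APP/PS1* library of 3 months. At 9 months, 31 DAM held the 285 UMIs of *APP/PS1* and 33 DAM the 563 of Nlrp3KO *APP/PS1*, with 104 and 137 in the top cell.

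**Figure D3:**
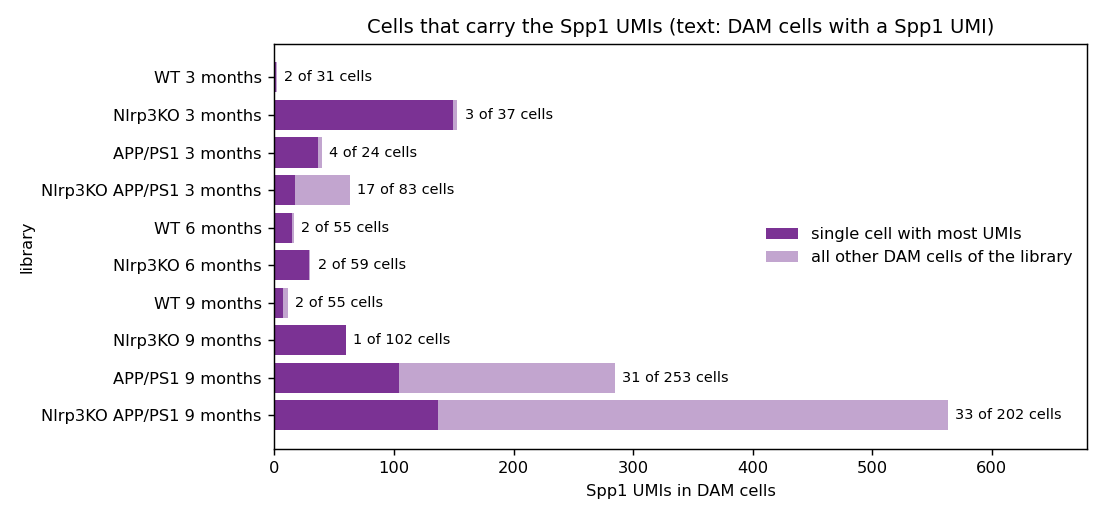
Stacked bars of the *Spp1* UMIs counted in DAM of each of the 10 libraries, split into the single cell with most of them and all other DAM. The top cell holds nearly the whole bar in the Nlrp3KO libraries of 3, 6 and 9 months and the smaller part in the 3 *APP/PS1* libraries with most DAM.

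The bar plot of *Spp1* UMIs shows that the DAM level of *Spp1* rested mostly on 1 cell in 5 of the 6 non-diseased libraries, the WT library of 3 months having too few UMIs to tell. Over all states, 34 microglia with at least 10 *Spp1* UMIs held 1352 of the 1926 microglial UMIs of this gene (70.2%). Of these, 18 were labelled DAM, 12 IEG, 2 IRM, 1 HM and 1 TM, and 25 came from *APP/PS1* libraries. A doublet score over 0.5 was given to 6 of them, and their median depth was 7042 UMIs against 5679 in the 883 other DAM. The limit of 10 UMIs was chosen after the values were seen, so what follows is a description.

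Since the members differ between DAM and IEG, the *Spp1*-rich cells were compared within a state, and the 18 labelled DAM were set against the 883 other DAM. Both sets pool libraries of *APP/PS1* and non-diseased mice, so differences between libraries are mixed into the ratios that follow. The 8 other members were all at a higher level in the *Spp1*-rich DAM, by a log2 ratio (of CPM + 1) of 0.55 to 3.70. *Igf1* measured 483 CPM in them and 50.7 in the other DAM, *Itgax* 354 and 42.0, and *Lgals3* 214 and 15.6 (35 UMIs in 8 cells). *Ank* (617 and 240), *Cd63* (2970 and 1330), *Cd9* (4937 and 2747), *Axl* (189 and 96.2) and *Capg* (232 and 158) had smaller ratios. All 25 other DAM genes were higher as well, with log2 ratios from 0.15 to 3.62 and a median of 0.74, and all 14 homeostatic genes were lower, from -2.99 to -0.10 with a median of -1.24. *Apoe*, for example, was at 39952 and 6758 CPM, *Ctsd* at 19860 and 16807, and *P2ry12* at 361 and 2449. In BAM these 3 genes, which were picked after their values were seen, were at 35084, 1283 and 160 CPM. The border macrophage markers in the *Spp1*-rich cells are given below. Likeness of these cells to BAM was not tested. In the 12 *Spp1*-rich IEG, against 2082 other IEG, the 8 members were also higher (0.54 to 1.71), but *Igf1* there rested on 1 UMI, and 19 of the 25 other DAM genes were higher and 5 lower.

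Markers of other cells were counted in all 34 *Spp1*-rich cells. Of the 3 monocyte markers, *Ccr2* had 0 UMIs in these 34 cells, whereas *Ly6c2* was at 183 CPM against 3.90 in the other DAM (49 UMIs in 3 cells) and *Plac8* at 29.8 against 4.78 (8 UMIs in 2 cells). Of the 5 border macrophage markers, *Mrc1*, *Cd163*, *Lyve1* and *F13a1* had 0 UMIs, and *Pf4* was at 41.0 CPM against 14.5 (11 UMIs in 1 cell). The part of these markers in the values of the 34 cells was not tested. *Cd44*, which codes for a receptor of osteopontin, was at 3.73 CPM in the 34 cells and 3.90 in the other DAM.

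In single DAM brought to the same 1500 UMIs, *Cd9* was seen in 90.0% of the 901 cells and *Cd63* in 66.6%. *Ank* was seen in 20.6%, *Capg* in 18.5%, *Axl* in 8.32%, *Itgax* in 5.44%, *Igf1* in 5.22%, *Spp1* in 4.44% and *Lgals3* in 1.55%. Before thinning the shares were 99.6, 91.2, 41.5, 47.7, 26.0, 17.3, 14.9, 10.8 and 3.89% in that order. T cells, in which most of these genes are not expected, served as a background at the same depth. They showed *Spp1* in 0.313%, *Ank* in 2.19%, *Axl* in 0.688% and *Itgax* in 0.376% of 1598 cells (median depths of 5726 UMIs in DAM and 5810 in T cells). *Lgals3* (8.95%) was more frequent in T cells than in DAM and *Capg* (15.8%) nearly as frequent. T cells held 80.4 and 154 CPM of these 2 genes when pooled, so they are no background for them. In HM at the same depth, *Lgals3* was seen in 0.0751% and *Capg* in 3.79% of cells. At least 3 of the 9 members were seen in 33.0% of DAM, 29.1% of IEG, 11.5% of TM, 3.62% of HM and 0.313% of T cells. Among thinned DAM the counts of *Igf1* and *Spp1* had a Pearson's r of 0.45 over cells, those of *Cd63* and *Cd9* 0.348 and those of *Itgax* and *Spp1* 0.298, over 901 cells that share libraries and depth.

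Within DAM, 6 of the 8 members tested were higher in *APP/PS1* than in non-diseased mice, namely *Ank*, *Igf1*, *Axl*, *Itgax*, *Cd9* and *Cd63*. The comparison used UMIs summed per library, edgeR's quasi-likelihood test with the 4 pairs as blocks and Benjamini-Hochberg adjustment over 6331 genes. It had 3 residual degrees of freedom, so small p-values lean on a dispersion shared with the other genes. Genes counted as called had to pass an adjusted p of 0.05 and a log2 fold change beyond 1 in either direction, which 182 genes did (2.87%), 153 of them with higher values in *APP/PS1* (2.42%). *Igf1* and *Itgax* passed the filter on low counts through the *APP/PS1* libraries: *Igf1* had 6 to 144 UMIs in those and 0 to 8 in the paired ones, and *Itgax* 13 to 101 and 2 to 7. *Lgals3* did not pass the filter, so the count of 6 of 8 is a description of the genes tested and not support for the list. DESeq2 called 4 members, beside 65 of the 6331 genes, and gave no adjusted p for *Itgax* and *Igf1*. DAM are a cluster drawn on the cells of both backgrounds, so the test compares mice within that label.

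*Ank*, the pyrophosphate exporter, measured 369 CPM in DAM of *APP/PS1* and 49.7 in DAM of WT mice at 3 months, and 248 and 47.8 at 9 months. With Nlrp3KO on both sides it measured 520.5 and 83.3 CPM at 3 months and 365 and 43.8 at 9 months. The lowest *APP/PS1* library was thus well above the highest non-diseased one. Ranges in DAM did not overlap for *Capg* either, a member that was not called, and overlap was not counted over all genes. *Ank* had a log2 fold change of 2.92 ± 0.20 (SE, adjusted p = 1.25e-10). It was also the called member with the smallest SE relative to its size.

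*Axl*, the Gas6 receptor, measured 154 and 55.9 CPM (*APP/PS1* and non-diseased) at 3 months and 99.4 and 20.5 at 9 months. Between the Nlrp3KO libraries it measured 186 and 39.2 CPM at 3 months and 139.6 and 13.3 at 9 months. Its log2 fold change was 2.58 ± 0.26 (adjusted p = 2.425e-07). *Itgax* measured 57.1 and 43.5 CPM at 3 months and 56.6 and 6.83 at 9 months, and 93.9 and 14.7, and 68.5 and 7.61, between the Nlrp3KO libraries. The pair of 3 months without Nlrp3 deletion was the closest, and the log2 fold change was 2.48 ± 0.36 (adjusted p = 4.946e-05). *Igf1* measured 26.4 and 0 CPM at 3 months, 86.8 and 0 at 9 months, and 82.4 and 39.2, and 94.9 and 3.81, between the Nlrp3KO libraries. The 2 WT libraries had no *Igf1* UMI in 31 and 55 DAM, which allows up to 18.6 and 10.2 CPM (3 UMIs), so the fitted log2 fold change of 3.37 ± 0.46 (adjusted p = 2.09e-05) is loose in size.

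The tetraspanins changed less and with less spread. *Cd9* measured 3797 and 1808 CPM at 3 months and 3140 and 2043 at 9 months, and 4014 and 1911, and 2977 and 1458, between the Nlrp3KO libraries (log2 fold change 1.11 ± 0.14, adjusted p = 9.42e-06). *Cd63* measured 1503 and 851 CPM at 3 months and 1478 and 806 at 9 months, and 1797 and 1162, and 1682 and 620.5, between the Nlrp3KO libraries (1.11 ± 0.15, adjusted p = 2.115e-05). Both passed the fold limit narrowly, and without the Nlrp3KO pair of 9 months *Cd63* fell to 0.91 and was no longer called. *Capg* was higher in *APP/PS1* in 4 of 4 pairs but was not called (0.76 ± 0.24, adjusted p = 0.0544), although it was called at 1.005 without that pair (adjusted p = 0.0310). Its pairs were 163 and 106, 206 and 34.3, 180 and 161, and 177 and 160 CPM, in the order of 3 months, 3 months with Nlrp3KO, 9 months and 9 months with Nlrp3KO.

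**Figure D4:**
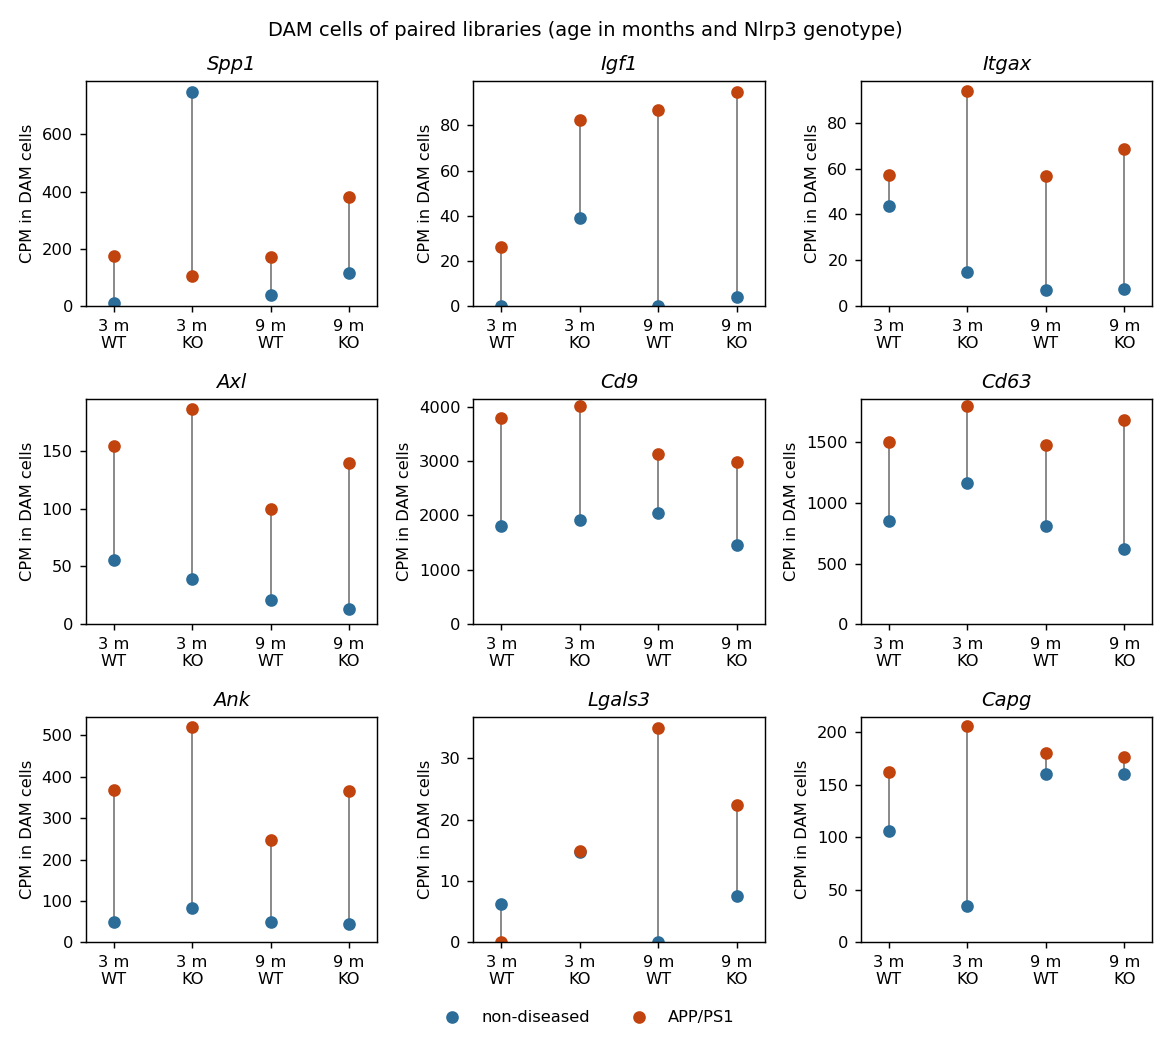
CPM of each member in DAM of the 8 libraries of 3 and 9 months, one panel per gene, with a line joining each *APP/PS1* library to its non-diseased partner. All 4 lines slope the same way for *Ank*, *Axl*, *Itgax*, *Igf1*, *Cd9*, *Cd63* and *Capg*, and 1 line of *Spp1* slopes against the other 3.

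*Spp1* was not called in DAM (log2 fold change 0.72 ± 0.51, adjusted p = 0.499), and the paired plot shows its spread. It measured 176 and 12.4 CPM at 3 months, 172 and 37.6 at 9 months, and 382 and 114 between the Nlrp3KO libraries of 9 months, but 104 and 750 between those of 3 months. Without the cell with most *Spp1* UMIs of each library, the levels were 18.7 and 6.72 CPM at 3 months, 109 and 13.95 at 9 months, and 76.5 and 20.7, and 291 and 0, between the Nlrp3KO libraries. Those cells were chosen on *Spp1* itself after its values were seen, so these levels are a description with no test. Without the pair of Nlrp3KO libraries of 3 months the log2 fold change was 2.22. That was the 1 pair that went the other way, so leaving it out had to raise the value and is no check of the call. *Lgals3* measured 0 to 34.9 CPM in DAM of *APP/PS1*, 0 to 14.7 in the paired libraries and 0 to 37.0 over all 6 non-diseased libraries. With DAM taken from the annotation of all cells, *Ank* (2.45), *Igf1* (2.66) and *Axl* (1.46) were still called, while *Cd9* fell to 0.63, *Itgax* to 0.84 and *Cd63* to 0.34. The adjusted p of those 3 was then 0.00526, 0.102 and 0.277, so 3 of 9 members were called, beside 77 of 7713 genes.

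Outside DAM, *Ank* was also set side by side between the backgrounds. In IRM it measured 28.1 to 48.1 CPM in the 4 *APP/PS1* libraries and 12 to 22.4 in the 6 non-diseased ones, without overlap. In HM it measured 21.4 to 27.8 and 16.9 to 23.8 CPM, in TM 19.96 to 41.9 and 10.0 to 22.3, and in IEG 118 to 169 and 24.8 to 135, each with some overlap. In PM it measured 23.4 to 129 and 16.9 to 44.6 CPM, and the 9-month pair without Nlrp3 deletion went the other way there (23.4 in *APP/PS1* and 29.4 in WT). *Axl* in PM measured 25.8 to 59.6 CPM in *APP/PS1* and 1.64 to 31.9 in non-diseased libraries, and *Lgals3* in PM 11.3 to 22.2 and 0 to 8.46. *Itgax* in IEG, at 35.4 to 47.7 and 15.0 to 75.7 CPM, and *Axl* in IRM, at 22.65 to 74.3 and 25.1 to 53.4, overlapped widely. These states were not tested between genotypes, other than HM below, and overlap was not counted over all genes.

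Of the direct partners of the members, *Gas6*, the ligand of Axl, was higher in DAM of *APP/PS1* by a log2 fold change of 0.94 (adjusted p = 0.00132), just under the fold limit. *Lgals3bp*, which codes for a galectin-3-binding protein and not for a galectin, was called at 1.05 (adjusted p = 2.39e-04). It was 1 of 3 genes tested from a list of galectins and this gene, where 2.87% of all genes tested were called. Over the 10 libraries its pooled level was higher in IRM (527 CPM) than in DAM (390 CPM). The integrin chains *Itgb5*, a subunit of an osteopontin receptor (0.60, adjusted p = 0.00676), and *Itgb2*, the partner of CD11c (0.52, adjusted p = 0.0378), differed by less than the fold limit. *Mertk*, another TAM receptor (0.14, adjusted p = 0.714), and *Igf1r*, the receptor of Igf1 (0.75, adjusted p = 0.143), did not pass the test. No gene was called among 5 osteopontin receptors tested (8 listed), 3 of the IGF axis (11 listed), 3 of the TAM axis (4 listed), 7 of the Dectin-1 pathway (8 listed) or 2 beta2 integrins (4 listed). None was called either among 8 other tetraspanins, 5 actin-capping genes (8 listed) or 1 pyrophosphate gene (5 listed). Of 24 other DAM genes tested (25 listed), 15 were called as higher, against 2.42% of all genes tested, and the median log2 fold change was 1.19. None of 14 homeostatic genes was called, and their median was -0.20. All these lists were drawn up with earlier results of these data known.

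Over all microglia of a library, the *APP/PS1* effect was called for none of the 9 members, where 5 of 12282 genes were called (0.0407%). All 9 had a positive log2 fold change, as had 51.3% of all genes (median 0.92 against 0.003 over all genes). An unadjusted p under 0.05 was given to 7 members and 918 genes (edgeR, 3 residual degrees of freedom). The members were chosen with earlier results of these data known, so this is a description and not support for the list. The values were 2.37 ± 0.54 for *Igf1* (adjusted p = 0.368), 1.66 ± 0.59 for *Spp1* (0.603), 1.23 ± 0.22 for *Axl* (0.235) and 1.16 ± 0.30 for *Ank* (0.399). *Itgax* was at 0.92 (0.430), *Capg* at 0.42 (0.250), *Cd9* at 0.25 (0.544), *Cd63* at 0.22 (0.695) and *Lgals3* at 0.10 (0.963). DESeq2 called 1 member, *Axl* (1.218, adjusted p = 2.65e-04), beside 22 of the 12282 genes. By library, *Igf1* spanned 1.88 to 16.4 CPM in the 4 *APP/PS1* and 0.235 to 1.825 in the 6 non-diseased libraries. The values 1.88 and 1.825 rest on 36 and 33 UMIs, so they are not apart beyond counting error. *Ank* spanned 37.0 to 98.0 and 19.2 to 29.0. How many of all genes had ranges without overlap was not counted.

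**Figure D5:**
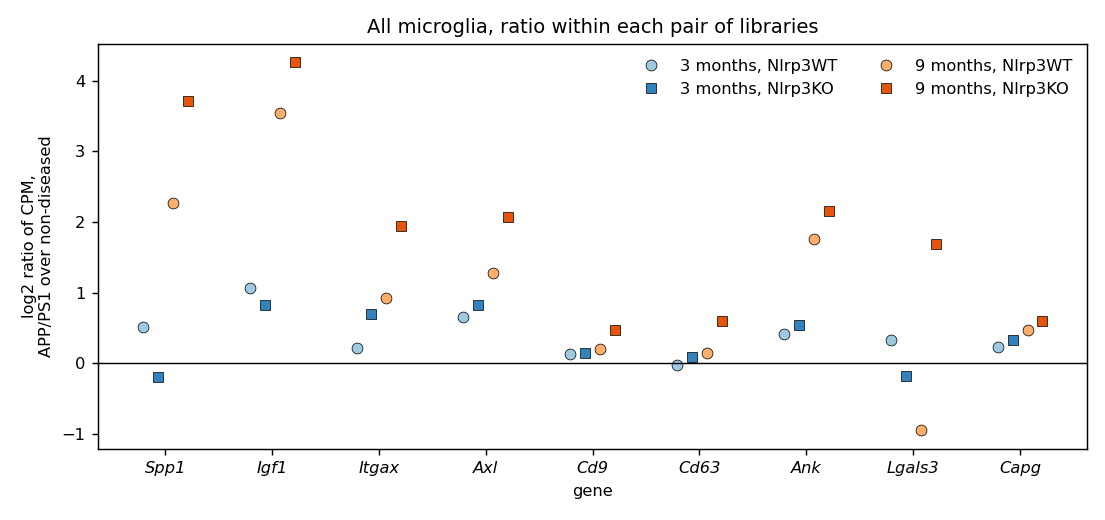
log2 ratio of CPM in all microglia of *APP/PS1* over that of its non-diseased partner, for the 9 members, with one point per pair and the ages told apart. The points of 9 months lie above those of 3 months for every member but *Lgals3*.

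The pairs of 3 and 9 months lay apart in the plot of pair ratios. *Igf1* had log2 ratios of 1.07 and 0.83 at 3 months and 3.55 and 4.26 at 9 months (the second of each with Nlrp3KO). *Ank* had 0.41 and 0.54, then 1.76 and 2.16, and *Spp1* 0.52 and -0.19, then 2.26 and 3.71. Both Nlrp3KO ratios of *Spp1* rested on single cells of the non-diseased library. At 3 months 1 cell held 81.4% of its *Spp1* UMIs (6.55 CPM, and 1.217 without that cell), and at 9 months 1 cell held 82.2% (5.65 CPM, and 1.007 without it). For *Igf1* and *Ank* the ratios of 9 months exceeded those of 3 months in both Nlrp3 genotypes. In the direct test of the *APP/PS1* effect at 9 against 3 months, however, 0 of 9 members and 0 of 12282 genes (0%) were called by edgeR, which had 2 residual degrees of freedom. At an unadjusted p under 0.05 there were 7 members and 601 genes. *Ank* differed by 1.57 ± 0.16 (adjusted p = 0.231), *Igf1* by 3.04 ± 0.37 (adjusted p = 0.294) and *Spp1* by 3.00 ± 0.48 (adjusted p = 0.502). DESeq2 called those 3 members and 6 genes in all. Leaving out a 9-month pair leaves 1 pair at that age, so only effect sizes are given. Without the 9-month pair without Nlrp3 deletion, *Ank* differed by 1.78, *Igf1* by 3.42 and *Spp1* by 3.73 (edgeR). Without the 9-month Nlrp3KO pair they differed by 1.33, 2.66 and 2.24. Age cannot be told apart from batch here, though each ratio was taken within a batch.

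In HM, the *APP/PS1* effect was called for 0 of 7 members tested and for 0 of 11887 genes (0%) by edgeR, with 2 members and 544 genes having an unadjusted p under 0.05. DESeq2 called no member either. *Spp1* in HM measured 0.137 to 5.10 CPM in *APP/PS1* and 0 to 0.605 in non-diseased libraries (log2 fold change 1.88 ± 0.55, adjusted p = 0.900). *Axl* measured 1.98 to 8.665 and 1.84 to 3.255 CPM (0.73 ± 0.28, adjusted p = 0.900), higher in 4 of 4 pairs. *Ank* was at 0.20, *Itgax* at 0.22, *Cd9* at 0.08, *Capg* at 0.02 and *Cd63* at -0.02 on the log2 scale. *Igf1* and *Lgals3* did not pass the filter there.

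DAM held 0.498 to 4.07% of the microglial UMIs in the 6 non-diseased libraries, 1.19 and 1.73% in the *APP/PS1* libraries of 3 months, and 15.0 and 15.8% in those of 9 months. Against 2.99% of all microglial UMIs, DAM held 66.1% of the *Igf1* UMIs and 63.5% of the *Spp1* UMIs, but 22.4% of *Axl*, 21.2% of *Ank*, 20.9% of *Itgax*, 12.3% of *Capg* and 7.875% of *Lgals3*. *Lgals3* came mainly from IEG, with 75.9% of its UMIs against 6.17% of all UMIs. *Cd9* (68.3%) and *Cd63* (62.2%) came mainly from HM, the largest state. Their levels in HM (1757 and 536 CPM) were below those over all microglia (1944 and 650). In *APP/PS1* libraries DAM held 34.9% of the *Ank* UMIs, and in non-diseased ones 3.47%.

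The 9-month differences over all microglia were split, at the midpoint of both libraries, into a part from the shares of the states and a part from levels within states. For *Ank* the difference between *APP/PS1* and WT was 48.5 CPM, of which 19.6 (40.3%) came from state shares, and with Nlrp3KO it was 76.1, of which 28.4 (37.3%) did. The pairs also lay close for *Igf1* (42.6 and 39.0%), *Axl* (49.6 and 44.2%) and *Spp1* (56.9 and 47.6%). They lay apart for *Itgax* (86.5 and 48.2%), *Cd9* (67.8 and 31.2%), *Cd63* (169.6 and 39.0%) and *Capg* (129 and 90.7%), where a value over the whole difference means that levels within states were lower in *APP/PS1*. *Lgals3* differed by -9.69 CPM between *APP/PS1* and WT, with a state-share part of the opposite sign (-138%), and with Nlrp3KO the shares gave 72.0%. The split is arithmetic on clusters and carries no test.

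Nlrp3 deletion was the question of the design. Over all microglia, 0 of 9 members were called between Nlrp3KO and Nlrp3WT libraries (5 pairs, edgeR), beside 3 of 12383 genes (0.0242%). *Spp1* (0.78 ± 0.22, adjusted p = 0.903), *Ank* (0.24 ± 0.07, adjusted p = 0.903, higher in 5 of 5 pairs) and *Capg* (0.15 ± 0.06, adjusted p = 0.903) had an unadjusted p under 0.05, as had 574 of the 12383 genes. DESeq2 called no member and 6 genes. The other 6 lay between -0.07 and 0.45 on the log2 scale. Without the non-diseased pair of 9 months, the 1 pair of 5 that went the other way for this gene, *Spp1* was called at 1.02 (adjusted p = 0.0130). The *Spp1* values lean on single cells. In the Nlrp3KO libraries of 3 and 9 months, 1 cell held 149 of 183 and 60 of 73 microglial *Spp1* UMIs. In the WT library of 6 months, 1 cell held 15 of 27.

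Within DAM, 0 of 9 members were called between Nlrp3KO and Nlrp3WT by edgeR, beside 7 of 5789 genes (0.121%), and 4 members had an unadjusted p under 0.05, as had 431 genes. DESeq2 called no member and 2 genes. *Spp1* had the largest value of the members (1.28 ± 0.32, adjusted p = 0.0921), followed by *Igf1* (0.78 ± 0.28, adjusted p = 0.425, higher in 5 of 5 pairs), *Ank* (0.46 ± 0.16, adjusted p = 0.373, higher in 3 of 5) and *Axl* (0.4152 ± 0.18, adjusted p = 0.621, higher in 3 of 5). Between the *APP/PS1* libraries, *Igf1* measured 82.4 CPM with and 26.4 without Nlrp3 deletion at 3 months, and 94.9 and 86.8 at 9 months. *Ank* measured 520.5 and 369 CPM, then 365 and 248. Between the non-diseased libraries it measured 83.3 and 49.7 CPM at 3 months, 62.6 in both at 6 months, and 43.8 and 47.8 at 9 months. The call for *Spp1* turned on the processing. It was called at 2.08 without cells with a doublet score over 0.5 (adjusted p = 0.00142) and at 1.30 with no filter on low counts (2.71e-11). Without the *APP/PS1* pair of 3 months, the 1 pair of 5 that went the other way, it was called at 1.77 (0.0206). It was not called with DESeq2, with DESeq2 size factors or with additive covariates, nor in DAM from the annotation of all cells (0.94, adjusted p = 0.893). The DAM level of *Spp1* rested mostly on 1 cell in most non-diseased libraries, as given above. *Cd9* (-0.01 ± 0.12) and *Cd63* (0.11 ± 0.12) lay within their error of 0.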

How the data were processed

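10x Genomics 3' libraries of CD45+ whole-brain cells from 10 groups, 1 library each, were analysed. The deposited counts are UMIs per gene and cell, which the authors made with Cell Ranger against mm10. The authors' doublet score, a fraction from 0 to 1, came with the deposited annotation of all cells, and a second annotation gave the microglial states. Of 52369 cells, 6897 carried 2 sample names that match no sample and were not used. UMIs were summed per library and state and given as CPM, per library where it held at least 20 cells. Sums passing edgeR's filter on low counts were tested with TMM scaling and the quasi-likelihood test, with the pair of matched libraries as a block, in edgeR 4.0.16 (R 4.3.3), and with DESeq2 1.42.0 as an alternative. Called genes passed a Benjamini-Hochberg adjusted p of 0.05 and a log2 fold change beyond 1 in either direction.

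The pairs come from the labels (same age and Nlrp3 genotype, or same age and background). With 1 pooled library per group, the p-values rest on the spread between these pairs and on a dispersion moderated over all genes tested. They do not measure the spread between mice. Doublets were kept in the main values and left out in an alternative. Shares of cells were taken after thinning each cell to 1500 UMIs, and CPM limits from 3 UMIs cover counting error only. The share of the log2 difference before TM is the log2 ratio of TM over HM divided by that of DAM over HM. Named genes are the members, the partners of a member, genes of the lists past a limit, and the 3 genes with the highest Pearson's r over cell types among those with at least 50 CPM in 1 type. Genes of the *Spp1*-rich cells were chosen after their values were seen. The members and lists were chosen with earlier results of these data known. The fits were tested on simulated data. Alternatives were DESeq2 and its size factors, no filter, no doublets, covariates in place of pairs, the annotation of all cells and leaving out each pair, and, added after seeing the data, leaving out the top cell of each library.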

Additional observations from a re-analysis of the deposited data

Results flagged for a closer look

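A library far from the others of its background (Dixon's gap test, which chance alone flags in about 1 group in 20) was found in 8 of 90 groups of libraries tested. *Spp1* in DAM of the Nlrp3KO library of 3 months was at 749.9 CPM against 12.4 to 114 in the other non-diseased libraries, and 1 cell held 149 of its 153 UMIs. In IEG, *Spp1* was at 78.5 CPM in the Nlrp3KO *APP/PS1* library of 9 months against 29.5 to 35.7 in the other *APP/PS1* libraries. In HM, *Igf1* was at 0.488 CPM in the Nlrp3KO *APP/PS1* library of 3 months, below the 0.672 to 0.684 of the others. That rests on 13 UMIs against 3 to 10 in the others, which is within counting error.

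The WT library of 9 months accounted for 5 of the 8. Its IEG held 390.6 CPM of *Lgals3* (34.7 to 144.4 in the other non-diseased libraries), 192.2 CPM of *Capg* (53.4 to 82.1) and 120.7 CPM of *Spp1* (7.45 to 31.6). Over all its microglia, *Lgals3* was at 20.02 CPM (2.94 to 8.98 elsewhere) and *Itgax* at 8.20 (4.31 to 5.57). The 79 IEG of that library had 191 *Lgals3* UMIs in 26 cells, and without the cell with most of them the level was 311 CPM. Monocyte markers summed to 2.05 CPM, neutrophil markers to 2.05 and border macrophage markers to 0 in these IEG.

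In 4 comparisons the pairs moved in opposite directions, and these differences were not tested. In HM, the *APP/PS1* effect on *Capg* was 0.11 (mean log2 ratio) at 3 months and between -0.14 and -0.04 at 9 months, and that on *Igf1* was -0.33 at 3 months and between 0.40 and 1.49 at 9 months. The 9-month values of *Igf1* rest on 2 to 5 UMIs per library. The Nlrp3KO effect on *Itgax* was 0.27 in HM of *APP/PS1* mice against -0.42 to -0.23 in non-diseased pairs, and 0.36 over all microglia of *APP/PS1* mice against -0.60 to -0.13.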

How the results depend on the processing

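With DESeq2, 1 member was called over all microglia for *APP/PS1* (0 with edgeR) and 3 for *APP/PS1* by age (0). With DAM from the annotation of all cells, 3 members were called for *APP/PS1* (6). For *APP/PS1* by age, leaving out 1 pair leaves 1 pair at an age, so no count is given. Leaving out 1 pair gave 0 to 1 members for Nlrp3KO over all microglia and 0 to 1 for Nlrp3KO in DAM. In the latter, 1 member was called with no filter, 1 without doublets and 1 without the top *Spp1* cell. That alternative was chosen after seeing the data and drops cells by the gene called, so it is no check of the call. From non-diseased libraries only, the DAM level was 13.6 CPM for *Igf1*, 16.3 for *Itgax*, 29.9 for *Axl*, 1855 for *Cd9*, 884.7 for *Cd63* and 56.0 for *Ank*. The log2 ratio of TM over HM minus that of DAM over TM was then 1.415 for *Igf1*, 4.65 for *Axl*, 0.088 for *Cd9*, 0.42 for *Cd63* and -2.05 for *Ank*.

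Leaving out 1 pair at a time for *APP/PS1*, *Lgals3* ranged from -0.26 to 0.45 over all microglia and from -0.95 to 1.73 by age (-0.08 without the 3-month Nlrp3KO pair), and in HM *Capg* ranged from -0.026 to 0.054 and *Cd63* from -0.098 to 0.023. For Nlrp3KO over all microglia the ranges were -0.11 to 0.15 for *Itgax*, -0.27 to 0.40 for *Lgals3*, -0.085 to 0.0086 for *Cd9* and -0.0036 to 0.12 for *Cd63*, and *Itgax* gave -0.0025 with DESeq2 and *Lgals3* 0.15 without doublets. For Nlrp3KO in DAM, *Cd9* ranged from -0.094 to 0.13 without 1 pair and gave 0.0019 with DESeq2 and with its size factors, 0.018 with no filter and 0.047 without doublets. *Cd63* gave -0.054 there without the top *Spp1* cell, and the annotation of all cells gave 0.016 for *Capg*, -0.22 for *Itgax* and -0.62 for *Lgals3*. The causes were not tested.

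Genes called in all moved from 5 to 22 (microglia) and from 182 to 65 (DAM) for *APP/PS1* with DESeq2, and to 77 with the annotation of all cells. Without 1 pair they ranged from 0 to 11 over all microglia and 0 to 4 in HM. By age DESeq2 called 6. For Nlrp3KO they moved from 3 to 6 over all microglia with DESeq2 (8 without the non-diseased pair of 9 months), and from 7 in DAM to 24 with no filter, 2 with DESeq2, 4 with additive covariates and no replicate pairing, and 3 to 19 without 1 pair. Over the counts of members called, the members' levels per state and their order of rise together, 322 recomputed values stayed close to the reported one and 21 moved. For levels and order, close meant a shift under the SD over the 10 libraries, which is a loose limit. That SD was 223 CPM for *Spp1* in DAM (211 CPM pooled), where 143 CPM counted as close. The difference in log2 ratios of -0.02 for *Lgals3*, given above, counted as close too. DAM came as 24 to 253 cells per library.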
